A study of Mus musculus with 2 samples.

Results

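The complement components and receptors described here were 9 mouse genes of 19465 genes with a probe in both count matrices. These 9 genes were chosen by name, with earlier results of these data known. They were the C1q chains *C1qa*, *C1qb* and *C1qc*, the central component *C3*, the classical pathway component *C4b*, the alternative pathway component *Cfb*, the inhibitor *Serping1* and the anaphylatoxin receptors *C3ar1* and *C5ar1*. All 9 passed the filter on low counts and were tested. Because of how they were chosen, counts of members set beside the share of all genes are a description. The question was how their levels differed among the tumor, its edge and the neural tissue of the cerebellum, and which of them were lower inside the tumor than at its edge.

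The data were 2 formalin-fixed, paraffin-embedded cerebellar sections, 5 µm thick and 1 per biological replicate, with no treatment. Both carried tumors of the HP genotype, that is a human HER2 transgene with the V777L mutation behind a Lox-STOP-Lox element and an actin promoter, combined with PIK3CA H1047R. Primary tumors had been started by Cre adenovirus in the mammary gland, and the organoids grown from them were labelled with luciferase, dissociated and injected on one side into the cerebellum of syngeneic, immunocompetent B6 mice that were 5 months old. The model therefore starts at the injection site and has no step of spread through the blood. The titles name the organoids HP-F1 +cre in replicate 1 (section 1) and HP-B6 +cre in replicate 2 (section 2), whereas the cell line field reads B6-HP for both. No section without a tumor was analysed here, so all comparisons were between regions of the same 2 sections. The assay was Visium CytAssist for fixed tissue. Pairs of probes are ligated on the RNA and then captured on a slide of barcoded spots, each wide enough for several cells.

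Complement is a cascade of plasma and tissue proteins. C1q, built from the products of *C1qa*, *C1qb* and *C1qc*, binds immune complexes or dying cells and starts the classical pathway, C4 and C2 then form an enzyme that cleaves C3, and factor B (*Cfb*) forms the corresponding enzyme of the alternative pathway. The C1 inhibitor (*Serping1*) blocks the proteases bound to C1q. Cleavage of C3 and C5 releases the anaphylatoxins C3a and C5a, which are read by *C3ar1* and *C5ar1* on myeloid cells. In the brain, C1q is made mainly by microglia and macrophages, and C3 and C4 rise in reactive astrocytes and other glia.

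The regions were drawn from the counts, without any complement gene. A score of neuronal and oligodendrocyte markers split the spots of each section into neural tissue and tumor. The tumor interior lay at least 3 array steps from neural tissue and held 672 spots in section 1 and 731 in section 2. The tumor-side edge, at 1 to 2 steps, held 116 and 188 spots. The neural-side edge, at 1 to 3 steps on the other side of the border, held 181 and 265 spots, and neural tissue further away held 2342 and 2750 spots. UMIs were summed over each region of each section, which gave 8 libraries of 3271618 to 36425005 UMIs, and "the edge" below is the mean of both edge regions. Levels are given as CPM, that is UMIs of a gene per 1000000 UMIs of the library, scaled with TMM factors, in the order tumor interior, tumor-side edge, neural-side edge and neural tissue. As probes differ in efficiency, levels were compared between regions within a gene, never between genes.

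The labelled tissue and tumor were checked against marker lists. Neuronal and oligodendrocyte markers, which drew the border, summed to 1360 CPM in the tumor interior and 35260 CPM in the neural tissue of section 1, and to 1825 and 34969 CPM in section 2. Markers of mammary epithelium, which played no part in drawing the border, reached 15382 CPM in the tumor interior of section 2 but 77.7 CPM in that of section 1. In section 1 the interior was instead rich in fibroblast and collagen genes, at 64481 CPM against 967 CPM in section 2. The label of an epithelial breast tumor is therefore not borne out by these markers in section 1, where "tumor" below means the compact mass of low neural signal. Because of this difference the level of each member is given for both sections. Fold changes of the single sections are given for some of the comparisons, and the others are given as the fit alone.

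The promoter windows of 3 members are shown first, since these genes were all higher at the edge than in neural tissue and *C1qb* and *C1qc* are neighbors on chromosome 4. Each sequence is the 250 bases before the transcript start used in the RefSeq promoter table (GRCm38.p6, the build that the mm10 name in the submitters' processing notes refers to). The capitals mark matches to AGGAAG on either strand, the core of the site bound by PU.1, a transcription factor of the myeloid lineage.
C1qb, chr4:136886201-136886450, minus strand: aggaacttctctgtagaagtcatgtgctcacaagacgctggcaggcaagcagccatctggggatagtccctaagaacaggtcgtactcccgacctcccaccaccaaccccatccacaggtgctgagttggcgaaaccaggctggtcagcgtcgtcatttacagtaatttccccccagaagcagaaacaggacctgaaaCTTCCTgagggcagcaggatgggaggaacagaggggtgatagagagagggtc
C1qc, chr4:136892915-136893164, minus strand: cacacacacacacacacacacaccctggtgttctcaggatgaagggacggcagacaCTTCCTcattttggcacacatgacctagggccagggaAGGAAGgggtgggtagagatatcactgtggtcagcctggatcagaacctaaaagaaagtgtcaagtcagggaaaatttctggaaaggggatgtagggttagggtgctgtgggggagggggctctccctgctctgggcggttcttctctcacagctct
C3ar1, chr6:122856158-122856407, minus strand: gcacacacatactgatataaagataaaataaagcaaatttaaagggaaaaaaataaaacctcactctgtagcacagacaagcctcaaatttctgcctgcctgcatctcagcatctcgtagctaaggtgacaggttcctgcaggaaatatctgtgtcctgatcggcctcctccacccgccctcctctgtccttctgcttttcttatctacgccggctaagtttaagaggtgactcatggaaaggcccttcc

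The motif occurred 1 time in the window of *C1qb*, 2 times in that of *C1qc*, and not in those of *C3ar1* or *C3*. The last 22 bases of the *C1qc* window lie within the annotated gene, after both matches. The window of *C5ar1* is not shown, since 202 of its bases lie within the annotated gene. Of all 32851 promoter windows of this length, 29.5% held at least 1 match, so the presence of the letters is common and says nothing of binding. RefSeq promoter entries were matched for 5 of the 9 members, and *C1qa*, *C4b*, *Cfb* and *Serping1* had no entry. In GRCm38, *C1qb* (chr4:136880126-136886200), *C1qc* (chr4:136889801-136892936) and *C1qa* (chr4:136895916-136898844) lie side by side. *C4b* (chr17:34728139-34743902) and *Cfb* (chr17:34856374-34862514) share a region of chromosome 17, and *C3* lies further along that chromosome (chr17:57203967-57228136). *Serping1* is on chromosome 2 (chr2:84765360-84775444), *C3ar1* on chromosome 6 (chr6:122847140-122856157) and *C5ar1* on chromosome 7 (chr7:16246743-16259540).

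Inside the tumor, 4 of the 9 genes were lower than at the edge in both sections: *C4b*, *Serping1*, *C3ar1* and *C5ar1*. The fitted decreases were between 1.99-fold (*C5ar1*) and 2.88-fold (*C4b*). The C1q chains, *C3* and *Cfb* went in opposite directions in the 2 sections, being higher inside the tumor of section 1 and lower inside that of section 2. With 2 sections, none of the 9 passed edgeR's quasi-likelihood test at a Benjamini-Hochberg adjusted p of 0.05, while 4.22% of the 19099 genes tested were called lower and 0.812% higher. At an unadjusted p under 0.05 the same 4 members were lower, against 11.5% of all genes. DESeq2 called *C4b* and *C5ar1* lower, as it did 10.5% of the genes to which it gave an adjusted p. Of all genes tested, 28.5% were lower in both sections, and the median log2 fold change of the 9 members was -0.48, against 0.08 for all genes.

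**Figure D1:**
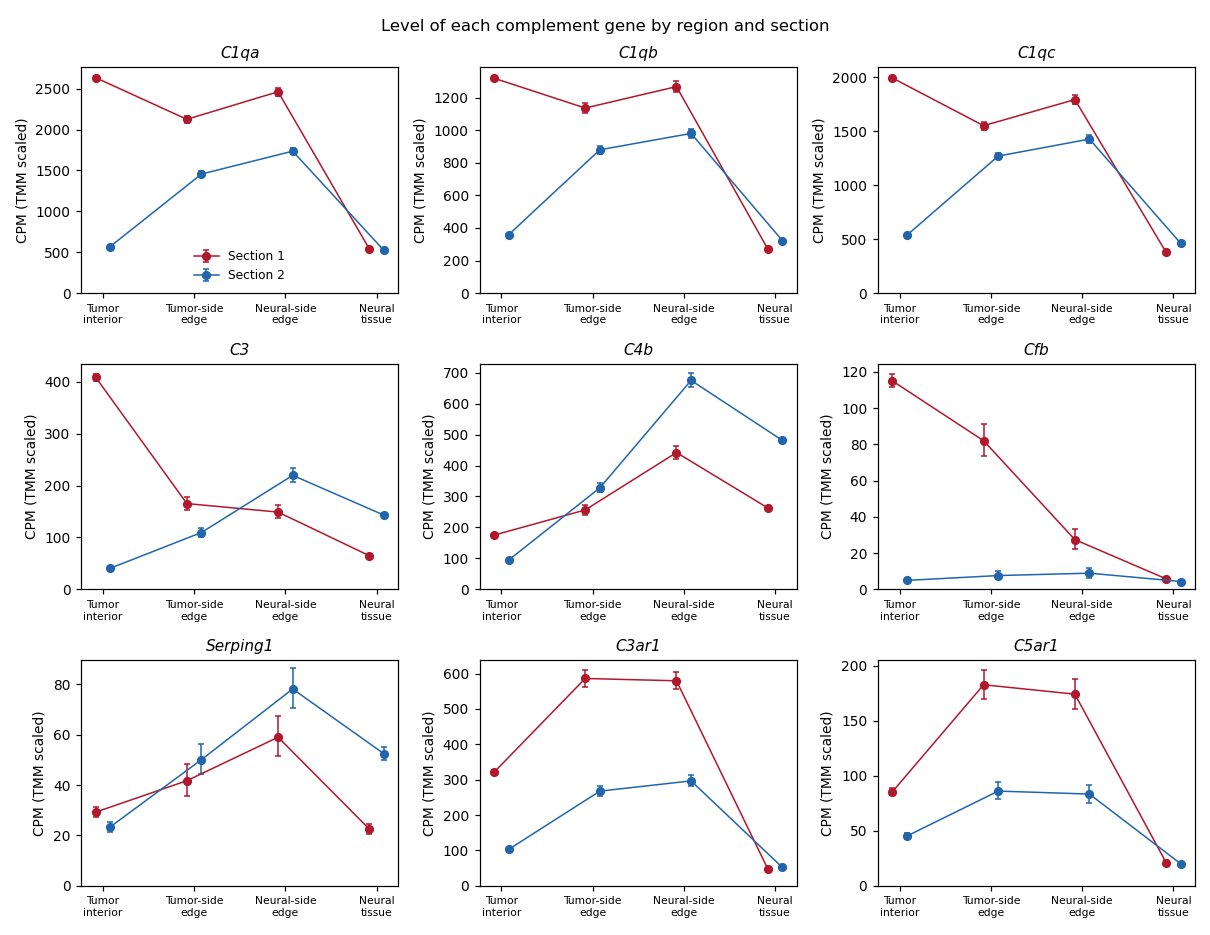
Level of each of the 9 complement genes (vertical axis, TMM-scaled CPM) in the 4 regions (horizontal axis) of section 1 and section 2, with bars for the 95% Poisson interval of the summed UMIs, which covers counting error alone. *C3ar1* and *C5ar1* have their highest levels in the edge regions of both sections, whereas *C1qa*, *C1qb* and *C1qc* stay high inside the tumor of section 1 and fall inside that of section 2, to 569.79 CPM for *C1qa*.

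The initiator chains of C1q behaved alike. *C1qa* measured 2635, 2126, 2463 and 539.94 CPM in section 1 and 569.79, 1456, 1737 and 522.15 CPM in section 2. In section 1 the interior and both edge regions were all far above neural tissue, while in section 2 the 2 edge regions stood apart and the interior was close to neural tissue. *C1qb* measured 1319, 1136, 1267 and 271 CPM in section 1 and 358, 879.55, 980.10 and 323 CPM in section 2. *C1qc* measured 1996, 1553, 1795 and 378.50 CPM in section 1 and 538, 1271, 1429 and 462 CPM in section 2. The same order of regions held for all 3 chains within each section.

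Between the tumor interior and the edge, the log2 fold change of *C1qa* was 0.20 in section 1 and -1.48 in section 2, with a fitted value of -0.48 ± 0.46 (SE, adjusted p = 0.57, edgeR). *C1qb* gave 0.14 and -1.37, and *C1qc* 0.26 and -1.32. Their fitted adjusted p-values were 0.55 and 0.65. These differences were within the spread between the sections, and the fall inside the tumor of section 2 has no replicate. The share of each chain in the C1q sum moved little: *C1qa* made up 44.2% to 45.4% of the C1q UMIs over the 4 regions of section 1 and 38.9% to 41.9% of those in section 2.

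Of the components downstream of C1q, *C4b* carried the largest fall inside the tumor. *C4b* encodes C4, which the C1 proteases cleave. It measured 175, 257, 442 and 263 CPM in section 1 and 94.4, 328, 675 and 481 CPM in section 2. In both sections the interior was lowest and the neural-side edge highest of the 4 regions. The log2 fold change from edge to interior was -1.53 ± 0.40 (SE), with -0.94 in section 1 and -2.31 in section 2, at an unadjusted p of 0.0096 and an adjusted p of 0.10 (edgeR). DESeq2 called this difference (adjusted p = 0.0061), and so did edgeR where the border was drawn from tumor and neural markers together (log2 fold change -1.60, adjusted p = 0.035). Against the tumor-side edge alone the log2 fold change was -1.07 (adjusted p = 0.71, edgeR). *C4a*, a near-identical copy of *C4b* on the same chromosome, had no entry in the count matrices, and UMIs from it that the *C4b* probes picked up could not be told apart.

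*C3* encodes the component on which all pathways converge. Its levels were 409, 165, 149 and 64.9 CPM in section 1 and 40.7, 109.53, 219.57 and 143 CPM in section 2. The interior was thus the highest region of section 1 and the lowest of section 2. The log2 fold change from edge to interior was 1.38 in section 1 and -1.92 in section 2, and the fitted 0.32 ± 0.91 (SE, adjusted p = 0.86, edgeR) averages 2 opposite values. It turned to -0.38 where the edge was taken as spots of intermediate neural score.

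*Cfb* rested on few UMIs in section 2, with 42 to 139 per region. It measured 115, 82.0, 27.5 and 5.84 CPM in section 1, a decline from the interior outward. In section 2 it measured 4.98, 7.65, 8.96 and 4.37 CPM, where the 95% counting intervals of the interior (4.15 to 5.93) and of neural tissue (3.67 to 5.16) overlap. The fitted log2 fold change from edge to interior was 0.55 ± 0.81 (SE, adjusted p = 0.72, edgeR). In section 1 *Cfb*, *C3* and the fibroblast list all declined over the 4 regions, the list summing to 64481, 47892, 9070 and 1132 CPM. From the tumor-side to the neural-side edge the list fell from 47892 to 9070 CPM and *Cfb* from 82.0 to 27.5 CPM. *C3* was near level there, at 165 and 149 CPM. In section 2 that list did not exceed 1660 CPM. The part of fibroblast content in these levels was not tested.

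*Serping1*, the inhibitor, followed the order of *C4b* in section 1 and section 2 alike on the tumor side. It measured 29.2, 41.7, 59.0 and 22.5 CPM in section 1 and 23.4, 50.1, 78.2 and 52.4 CPM in section 2. The neural-side edge was the highest region of both sections. From edge to interior the log2 fold change was -1.05 ± 0.32 (SE), with -0.75 and -1.40 in the sections, an unadjusted p of 0.019 and an adjusted p of 0.13 (edgeR).

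The receptors had the most even difference between interior and edge. *C3ar1*, the receptor of C3a, measured 321, 586, 579.80 and 47.8 CPM in section 1 and 102.5, 268, 297 and 51.8 CPM in section 2. *C5ar1*, the receptor of C5a, measured 85.3, 183, 174 and 21.0 CPM in section 1 and 45.1, 86.0, 83.3 and 19.9 CPM in section 2. For both genes, both edge regions were above the interior and the interior above neural tissue, in each section. From edge to interior, the log2 fold change of *C5ar1* was -0.99 ± 0.25 (SE), with -1.06 in section 1 and -0.90 in section 2 (unadjusted p = 0.0082, adjusted p = 0.093, edgeR). That of *C3ar1* was -1.12 ± 0.37, with -0.86 and -1.45 (unadjusted p = 0.024, adjusted p = 0.15, edgeR). *C5ar1* was called lower by DESeq2 (adjusted p = 0.024), and by edgeR when libraries were scaled by their size alone (-1.22, adjusted p = 0.044).

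Within the tumor mass itself, the interior was also set against the tumor-side edge, where neural tissue contributes less. EdgeR called none of the 19099 genes here (0%), while 1352 had an unadjusted p under 0.05 and DESeq2 called 439 (3.15%). No member was called by either tool. The log2 fold change of *C5ar1* was -1.02 ± 0.28 (SE, unadjusted p = 0.012, adjusted p = 0.38, edgeR) and that of *C3ar1* -1.09 ± 0.41 (unadjusted p = 0.039, adjusted p = 0.65), which made 2 of 9 members at that level against 5.75% of all genes. *C4b*, *Serping1*, *C3ar1* and *C5ar1* were again the 4 members lower in both sections, as were 23.7% of all genes.

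**Figure D2:**
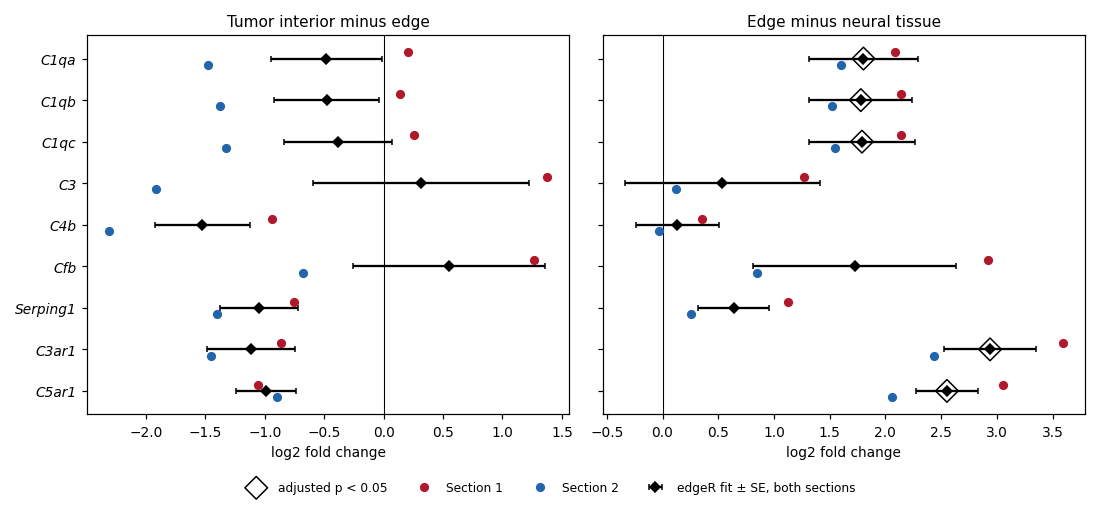
Log2 fold change of each gene for the tumor interior against the edge and for the edge against neural tissue (horizontal axis), with the edgeR estimate and its SE as a bar, and the values of section 1 and section 2 as separate points. Open diamonds mark the estimates called at an adjusted p under 0.05, which are those of *C1qa*, *C1qb*, *C1qc*, *C3ar1* and *C5ar1* for the edge against neural tissue and none for the interior against the edge.

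Against neural tissue, the edge was higher for the receptors and the C1q chains. *C3ar1* was 7.67-fold higher at the edge (log2 fold change 2.94 ± 0.41, SE, adjusted p = 0.0053, edgeR) and *C5ar1* 5.86-fold higher (2.55 ± 0.28, adjusted p = 0.0025). *C1qa*, *C1qb* and *C1qc* were 3.43-fold to 3.49-fold higher, with adjusted p-values of 0.042, 0.038 and 0.041. Thus 5 of the 9 members were called higher and none lower, where 12.3% of all genes tested were called higher and 14.9% lower. The 2 sections gave 3.60 and 2.43 for *C3ar1*, 3.06 and 2.06 for *C5ar1*, and 2.08 and 1.61 for *C1qa* on the log2 scale. *C4b* (0.13 ± 0.37, adjusted p = 0.83), *C3* (0.54 ± 0.87, adjusted p = 0.70), *Cfb* (1.72 ± 0.91, adjusted p = 0.23) and *Serping1* (0.64 ± 0.32, adjusted p = 0.20) did not pass the test. All members except *C4b* were higher at the edge in both sections, as were 34.6% of all genes.

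The size of these differences depended on which neural tissue was used. Limited to neural tissue at 4 to 12 steps from the tumor, the receptors still passed, at log2 fold changes of 1.61 for *C3ar1* (adjusted p = 0.036, edgeR) and 1.21 for *C5ar1* (adjusted p = 0.024). The C1q chains then gave 0.65 to 0.69 and were not called, with adjusted p-values of 0.33 to 0.40. The calls of all 3 chains were also lost without the section as a block, with the edge regions summed, with wider edge bands and with the edge taken by intermediate neural score. That of *C1qa* was lost as well when libraries were scaled by their size alone (adjusted p = 0.051). The call of *C3ar1* was lost with the intermediate score (2.52, adjusted p = 0.054), and *C5ar1* was called in all 12 tested settings.

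The tumor interior was higher than neural tissue for both receptors, *C3ar1* by 3.54-fold (log2 fold change 1.82 ± 0.42, SE, adjusted p = 0.020, edgeR) and *C5ar1* by 2.95-fold (1.56 ± 0.29, adjusted p = 0.0087). In section 1 and section 2 the log2 fold changes were 2.73 and 0.98 for *C3ar1*, and 2.00 and 1.16 for *C5ar1*. The receptors were the 2 members called higher, against 19.2% of all genes tested, and none was called lower, against 18.6%. Both calls were lost against neural tissue within 12 steps of the tumor, where the log2 fold changes were 0.45 and 0.17, and without the section as a block (adjusted p = 0.058 for each, edgeR). That of *C3ar1* was also lost with the edge regions summed (adjusted p = 0.059) and with the intermediate score (adjusted p = 0.11). Under that limit *C4b* (-2.41, adjusted p = 0.011, edgeR) and *Serping1* (-1.57, adjusted p = 0.018) were called lower in the interior. Against all neural tissue *C4b* gave -1.39 ± 0.44 (adjusted p = 0.053), with -0.59 in section 1 and -2.34 in section 2. In raw UMIs per spot, without scaling to depth, *C4b* was higher in the interior by 0.48 on the log2 scale, and the median spot held 56874.5 UMIs in the interior and 7534.5 in the neural tissue of section 1. The C1q chains were higher in the interior by 2.28 to 2.40 in section 1 and by 0.13 to 0.22 in section 2, and did not pass edgeR's test, with adjusted p-values of 0.087 to 0.10. DESeq2 called 6 members higher in the interior than in neural tissue, the C1q chains and *Cfb* among them, and called *C4b* lower, where it called 25.7% of genes higher and 18% lower.

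A finer view came from levels at each array step from the border, as CPM of the summed UMIs, which is a description within each section. Unlike the levels of the regions, these CPM were not scaled with TMM factors. The factors were 1.12 at the neural-side edge and 0.908 in the interior of section 1, and 1.10 and 0.832 in section 2. Ratios of neural-side to tumor levels are therefore larger here than on the scale of the regions. *C3ar1* and *C5ar1* had their highest level at the first neural spots next to the tumor in both sections. *C3ar1* reached 682 CPM there in section 1 and 372 CPM in section 2, which was 2.87 times and 4.83 times its median level at 6 to 17 steps inside the tumor. *C5ar1* reached 202 and 107 CPM, or 3.14 times and 3.01 times that level. In section 1 the next neural step was close, at 665 CPM for *C3ar1* and 192 CPM for *C5ar1*. *C5ar1* also gave 191 CPM at the third neural step and 184 CPM at the first tumor step. The exact step of these maxima was therefore not resolved in section 1. On the neural side *C3ar1* had fallen to 20.0 CPM at 12 steps in section 1 and to 100.2 CPM in section 2.

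Without TMM factors, the summed C1q chains peaked within 2 steps of the border on the neural side of both sections, at 6464 and 5163 CPM. In section 1 the sum dipped to 4360 CPM at the second tumor step and rose again to a median of 5727 CPM deep inside. In section 2 it went on falling, from 2720 CPM at the second step to a median of 1018 CPM. The level next to the border was therefore 1.06 times the deep level in section 1 and 5.07 times in section 2, both without TMM factors. On the TMM scale of the regions, each chain was instead highest in the interior of section 1. The place of the C1q maximum in section 1 thus depends on the scaling. The range of 6 to 17 steps was chosen after the levels had been seen.

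*C4b* and *C3* were higher further out on the neural side than at the border. Over the 12 neural-side steps shown, *C4b* in section 1 rose from 410 CPM at the first step to 1200 CPM at step 6 and was down to 402 CPM at step 12. In section 2 it had no such peak and lay between 708 and 918 CPM at all 12 steps, with near-equal maxima of 918 CPM at steps 6 and 9. *C3* also reached its neural-side maximum 6 steps out, at 393 CPM in section 1 and 480 CPM in section 2. In section 1 it was higher still inside the tumor (499 CPM at step 11), whereas the deep tumor of section 2 had a median of 24.6 CPM. *Serping1* peaked 7 steps out in section 1 (91.6 CPM) and 9 steps out in section 2 (129 CPM, with 127 CPM already at step 4). The value in section 1 rested on 66 UMIs, and steps 8 and 4 gave 81.8 and 81.0 CPM there. The highest neural-side values of the receptors and C1q thus lay within 2 steps of the border, with *C5ar1* in section 1 near level over the first few steps. The highest neural-side values of *C4b* and *C3* lay 6 steps away from it, with *C4b* near level in section 2. The step of the *Serping1* maximum was not resolved.

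**Figure D3:**
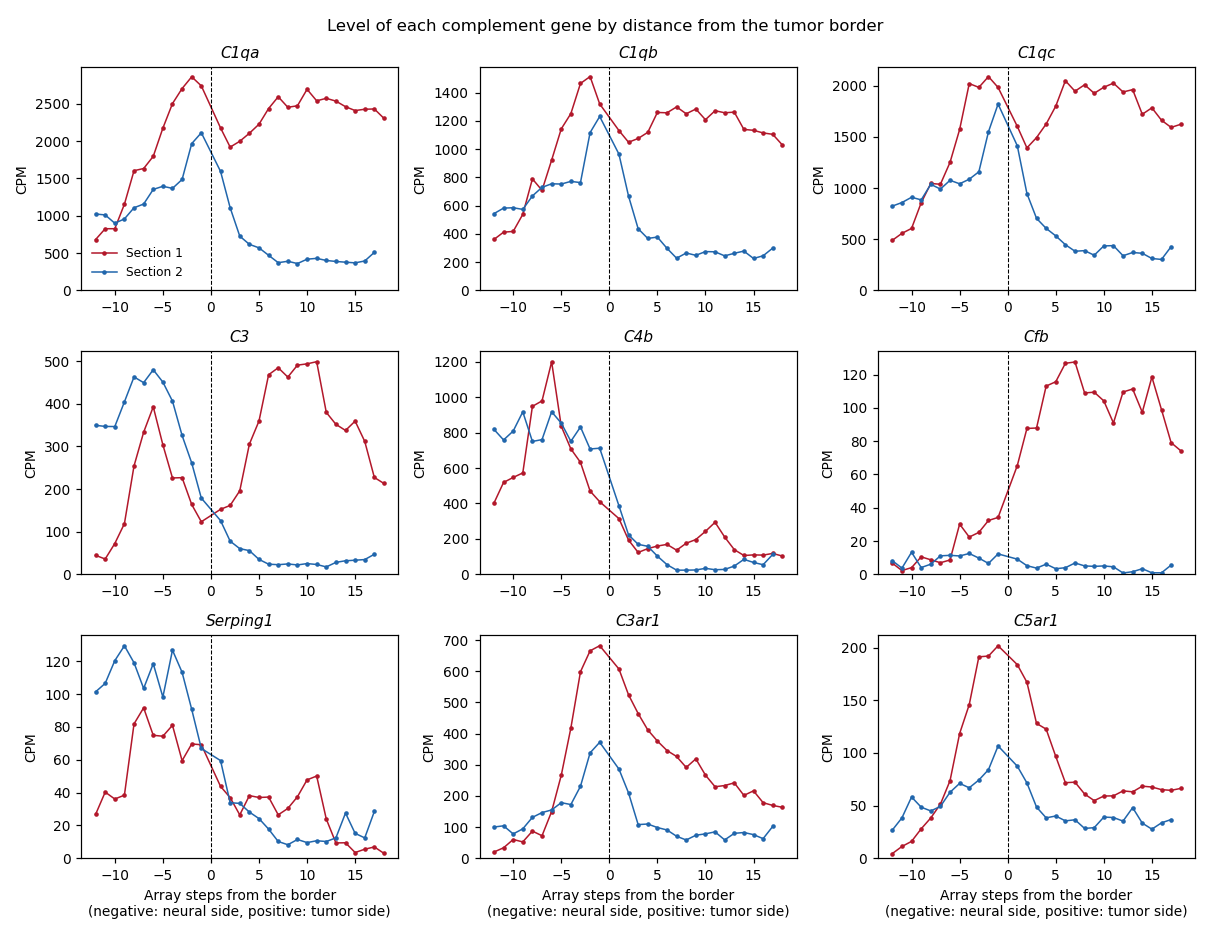
CPM of the summed UMIs, without TMM factors, at each array step from the tumor border (horizontal axis, negative steps on the neural side and positive steps inside the tumor) for each gene in section 1 and section 2, with steps of at least 20 spots shown. *C3ar1* and *C5ar1* are highest at step -1 in both sections, though close to their values at step -2 in section 1. *C4b* is higher on the neural side than inside the tumor, with a peak of 1200 CPM at step -6 in section 1 and a plateau of up to 918 CPM in section 2.

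**Figure D4:**
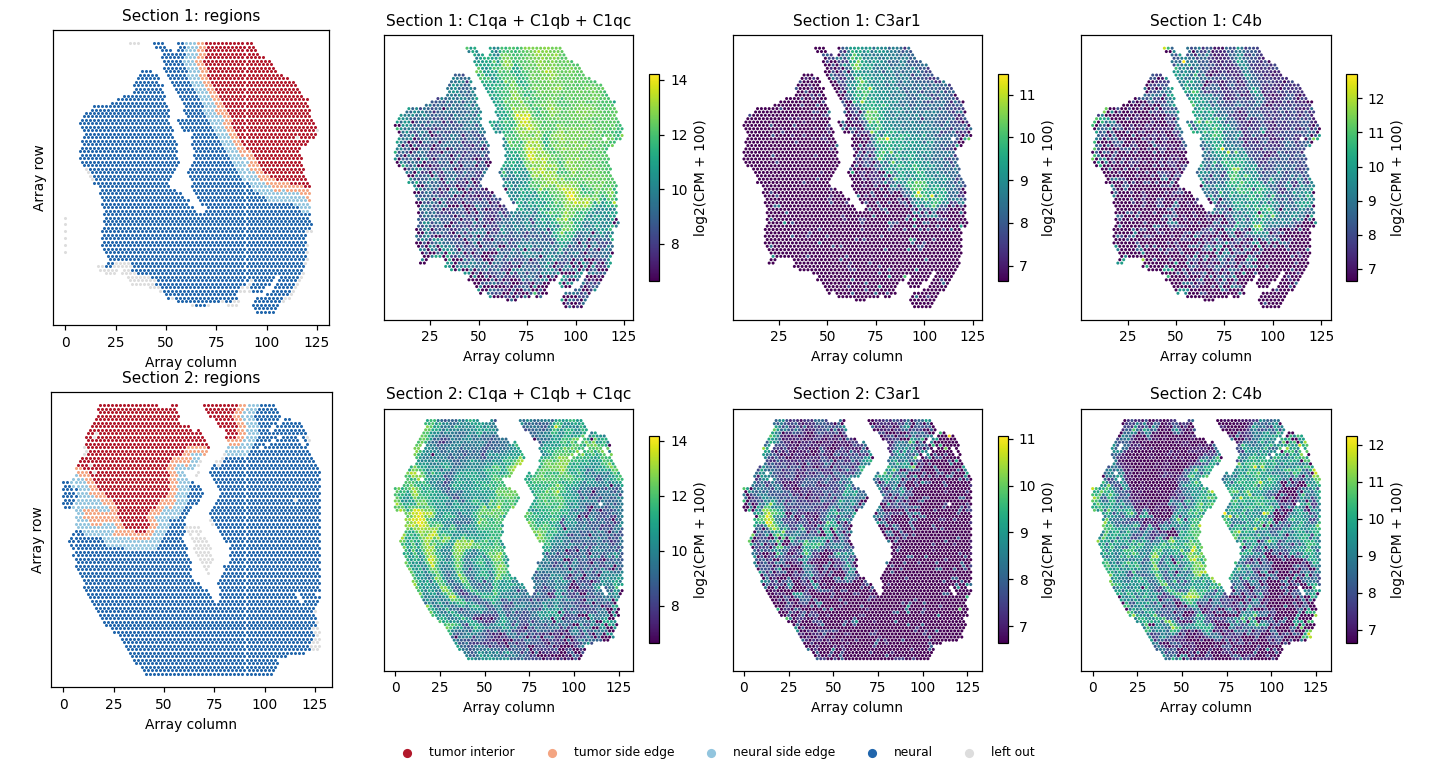
Array position of each spot in section 1 and section 2, with the 4 regions and, on the same positions, the level of the C1q sum, *C3ar1* and *C4b*. High *C3ar1* follows the border in section 1 and is strongest along one flank of the tumor in section 2. The C1q sum fills the tumor of section 1 and not that of section 2, and *C4b* is high in bands of neural tissue beside the tumor of section 2. By distance from the border, *C4b* also rises beside the tumor of section 1, to 1200 CPM at step -6.

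Markers of macrophages and of other myeloid cells were set beside these levels. The list of 13 macrophage markers, all tested, summed to 3119, 3276, 2964 and 536 CPM over the 4 regions of section 1 and to 922, 1802, 2078 and 690 CPM in section 2. Between interior and edge, 0 of the 13 were called by edgeR, with a median log2 fold change of -0.24, and between edge and neural tissue 7 of the 13 were called higher, with a median of 1.81, where 12.3% of all genes were called higher. The 10 microglia markers, which include *Sparc*, a gene also of fibroblasts, summed to 7910, 6526, 3608 and 1783 CPM in section 1 and to 1412, 2336, 2593 and 1991 CPM in section 2, and none was called between edge and neural tissue. In that comparison 3 of 5 monocyte markers and 3 of 7 neutrophil markers were called higher. The monocyte list, which includes the matrix genes *Fn1* and *Vcan*, was highest in the interior of both sections. It summed to 7928, 7008, 2076 and 232 CPM in section 1 and to 3277, 2795, 1485 and 264 CPM in section 2. The part of each cell type in the levels of the members was not tested. In spots that pool several cells, more cells of a type and more RNA per cell cannot be told apart. The levels were therefore also expressed per 100 UMIs of the macrophage list. The C1q sum then gave 191, 147, 186 and 222 UMIs in section 1 and 159, 200.2, 199.5 and 189 UMIs in section 2, so that the regions of a section differed by far less than in CPM. *C3ar1* gave 10.3, 17.9, 19.6 and 8.91 UMIs in section 1 and 11.1, 14.9, 14.3 and 7.51 UMIs in section 2. The edge regions remained the highest for *C3ar1* in both sections on the scale of the summed list. The markers of that list did not move alike in section 1. *Cd68* measured 653, 1393, 1294 and 122 CPM there, and *Csf1r* 464, 212, 229 and 96.6 CPM. In section 2 *Cd68* measured 180, 588, 666 and 95.8 CPM. Taken over *Cd68* alone, *C3ar1* and the C1q sum were both higher in the interior than in either edge region of each section. Taken over *Csf1r* alone, *C3ar1* was highest in the edge regions of both. The ratios therefore depend on the markers chosen. Per 100 UMIs of the list, *C5ar1* gave 2.74, 5.58, 5.87 and 3.91 UMIs in section 1, with both edge regions highest. In section 2 it gave 4.90, 4.77, 4.01 and 2.89 UMIs, where the interior was not below the edge. These ratios carry no test.

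*C4b* behaved otherwise on the same scale, with 5.62, 7.83, 14.9 and 49.1 UMIs per 100 macrophage UMIs in section 1 and 10.2, 18.2, 32.5 and 69.8 in section 2, rising outward in both. From the neural-side edge to neural tissue, *C4b* itself fell, from 442 to 263 CPM in section 1 and from 675 to 481 CPM in section 2. The macrophage list fell more over that step, from 2964 to 536 CPM and from 2078 to 690 CPM, so the ratio rose. The astrocyte list summed to 12627, 12765, 11967 and 6712 CPM in section 1 and to 9364, 14557, 16780 and 10016 CPM in section 2. It includes *Apoe* and *Vim*, which are not genes of astrocytes alone. *Gfap* by itself measured 1016, 1522, 2151 and 1268 CPM in section 1 and 734, 1933, 3516 and 4085 CPM in section 2. Of the list, 4 of 10 markers were called lower in the interior than at the edge (median log2 fold change -1.07, edgeR). Over all genes 4.22% were called lower there. The part of astrocyte content in the level of *C4b* was not tested.

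**Figure D5:**
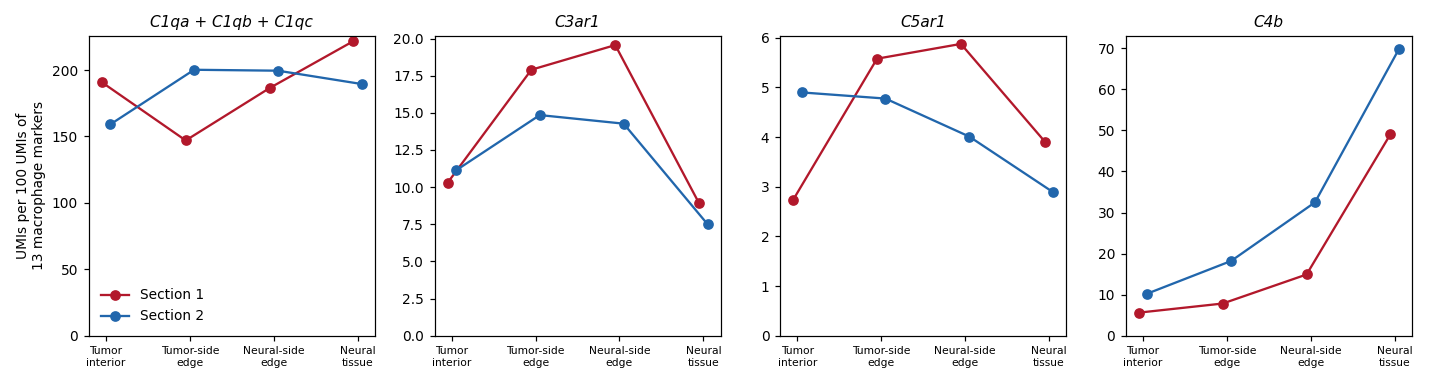
UMIs of the C1q sum, *C3ar1*, *C5ar1* and *C4b* per 100 UMIs of 13 macrophage markers (vertical axis) in the 4 regions (horizontal axis) of section 1 and section 2. The C1q sum lies between 147 and 222 in all 8 libraries, *C3ar1* is highest in the edge regions of both sections, and *C4b* rises from the tumor interior to neural tissue. From the neural-side edge to neural tissue the CPM of *C4b* falls, but that of the macrophage list falls more. The ratios depend on the markers: over *Cd68* alone, *C3ar1* and the C1q sum are higher in the interior than at the edge.

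Across all spots of each section, most members correlated with each other, which did not hold within each region. As Pearson's r of log2(CPM + 10) over the 3311 spots of section 1 and the 3934 of section 2, which share depth and tissue structure, *C1qa* correlated with *C1qb* at 0.68 and 0.64 and with *C1qc* at 0.70 and 0.65. *C3ar1* correlated with *C5ar1* at 0.74 and 0.46 and with *C1qa* at 0.66 and 0.51. Within the tumor interior alone, *C1qa* and *C3ar1* gave 0.085 in section 1 and 0.63 in section 2. In the same spots *C1qa* and *C1qb* gave 0.48 and 0.79. At the tumor-side edge of section 1, *C3* gave -0.44 with *C3ar1* and -0.45 with *C5ar1*, against 0.68 and 0.60 over all its spots. At the tumor-side edge of section 2 these pairs gave 0.17 and 0.08. Over all spots, *C4b* and *Cfb* were among the least alike, at 0.21 and 0.08. Among 9944 other genes, those with the highest mean r to the C1q sum were *Ctss* (0.70), which encodes the lysosomal protease cathepsin S, *Tmsb4x* (0.68), *Fcer1g* (0.67), an adaptor of Fc receptors, *Mpeg1* (0.66), a macrophage gene, and *Cd52* (0.66). For *C4b* they were *Gfap* (0.62), the intermediate filament of astrocytes, *Serpina3n* (0.58), a serpin of reactive astrocytes, *Apoe* (0.52), *Trf* (0.51) and *Mt2* (0.49). For *C3* they were *Ccn5* (0.72), *Fcgr2b* (0.63), *Cd52* (0.62), *Vim* (0.62) and *Lcn2* (0.60), the last of which encodes lipocalin 2. The genes nearest to C1q and to *C4b* had no name in common, which says little for lists of 5 among 9944 genes. *C1qa* and *C4b* themselves correlated at 0.51 in section 1 and 0.43 in section 2 over all spots.

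The rest of the pathway was read from a list of 44 further complement genes, of which 42 had a probe and 41 were tested. Between interior and edge, edgeR called 1 lower and none higher, and the median log2 fold change was -0.35. The gene called was *Susd4*, a regulator of complement expressed by neurons, at -1.34 (adjusted p = 0.049). As the border was drawn from neuronal markers, a fall of a neuronal gene across it was built in. This call therefore says nothing of complement in the tumor. Against the tumor-side edge *Susd4* gave -0.41 (adjusted p = 0.90, edgeR). Between edge and neural tissue 7 were called higher and 4 lower. The genes called higher included subunits of the complement receptors CR3 and CR4, *Itgax* (log2 fold change 3.39), *Itgb2* (2.51) and *Itgam* (1.55), the C5a receptor *C5ar2* (1.09), *Cd93* (2.69), *Cr1l* (0.59) and properdin, *Cfp* (1.81), which stabilizes the alternative pathway convertase. Those called lower were regulators, *Susd4* (-2.90), *Cd59a* (-1.66), *Csmd1* (-1.24) and *Cd46* (-0.88). Each of them was highest in neural tissue in both sections. Genes that follow neural content are lower at the edge by the way the regions were drawn, and the part of neural content was not tested. *Cr1l*, among the genes called higher, also encodes a regulator, so regulators went both ways. *Csmd1* and *Cd46* rested on few UMIs, from 7 to 166 and from 19 to 389 per region.

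These differences were present in each library. *Itgb2* measured 234, 365, 316 and 39.3 CPM in section 1 and 65.6, 155, 187 and 40.6 CPM in section 2, so that, as for *C3ar1*, both edge regions were above the interior and the interior above neural tissue. *Cd59a*, an inhibitor of the membrane attack complex, measured 23.7, 20.1, 33.2 and 81.3 CPM in section 1 and 5.81, 16.4, 40.1 and 81.5 CPM in section 2, with neural tissue highest in both. Between interior and neural tissue, 5 of the 41 were called higher (*Itgax*, *Cd93*, *Cfp*, *Itgb2* and *Cr1l*) and 9 lower. Among the 9 were *Susd4* (-4.24), *Cd59a* (-2.61), *Csmd1* (-2.36) and *Clu* (-1.16), which encodes clusterin. These named genes were highest in neural tissue in both sections, so the limit set by the neural score holds here as well. The rest were *Cd46*, *Cd59b*, *C8a*, *Cpn1* and *Colec11*, which rested on few UMIs. Per region *Cpn1* had 1 to 77, *Colec11* 6 to 67, *C8a* 12 to 66 and *Cd59b* 20 to 184 UMIs. *C8a* passed narrowly (adjusted p = 0.049, edgeR). Over all genes 19.2% were called higher and 18.6% lower in that comparison. Against the tumor-side edge none of the 41 was called. For the interior against the edge 4.22% of all genes were called lower, and for the edge against neural tissue 12.3% were called higher and 14.9% lower.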

How the data were processed

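Per the labels and the study's methods, 2 FFPE sections of HP tumors in mouse cerebellum were profiled with Visium CytAssist. The authors detected tissue and counted UMIs with Space Ranger 2.1.1 (build mm10 in the submitters' processing notes). What they deposited is the raw count of UMIs for each gene in each spot, not normalized. How probes treat close relatives such as *C4b* and *C4a* is not given in the sources used here. The authors' clusters were not used here.

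Spots under tissue numbered 3406 and 4017, with 63986887 and 71878333 UMIs in all. As in the study, spots needed at least 500 UMIs and 10 genes, which left 3315 and 3999. The study applied these limits within a marked region of interest, whereas all spots under tissue were used here. The neural score was log2 of the summed CPM of 46 neuronal and oligodendrocyte genes plus 100, split by Otsu's method in each section (12.83 and 12.87), smoothed over 6 neighbors and limited to connected groups of at least 50 spots. This gave 1 tumor group in section 1 and 2 in section 2, and left out 95 and 83 spots under tissue. The sections share 3096 spot barcodes, which come from the array's common barcode list.

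UMIs summed by section and region (TMM factors 0.832 to 1.16) were tested with edgeR 4.0.16 in R 4.3.3 (filterByExpr, TMM, robust glmQLFit, glmQLFTest) with region and section in the model and 3 residual degrees of freedom. Genes were called at a Benjamini-Hochberg adjusted p under 0.05 over 19099 genes. The section was a block, since its regions share 1 mouse. The common dispersion was 0.0805 with it and 0.161 without. Section fold changes are on the log2(CPM + 0.5) scale. Intervals are exact Poisson intervals at 95% and cover counting error only, and the precision of each comparison is set by the 2 sections.

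Alternatives were DESeq2 1.42.0, RLE factors, library size only, no filter, no block, each section alone, 5 other definitions of the regions, a minimum of 1000 UMIs per spot, and raw UMIs per spot. The fit was tested on simulated data, with 100 genes changed 2-fold and 100 changed 4-fold in the tumor interior. For the interior against the edge, 5% of the 2-fold and 78% of the 4-fold changes were called. Against the tumor-side edge these shares were 0% and 57%, and against neural tissue 1% and 61%. Most 2-fold changes were thus missed in the simulation. It changed only a small part of 18989 genes, whereas 37.8% of the 19099 genes were called for the interior against neural tissue. The adjusted p was therefore less strict in the data, where *Cr1l* was called in that comparison at 1.83-fold. The simulated shares do not carry over to it. Scripts ran in Python 3.11.15 with numpy 2.4.6, pandas 2.3.3, scipy 1.17.1 and scikit-image 0.26.0, with matplotlib 3.10.9 for the figures. The 9 members and all lists were chosen with earlier results of these data known. The genes named are the 9 members, other complement genes called in a comparison or named by role, and the 5 genes most like C1q, *C3* and *C4b* across spots, among genes with a UMI in at least 20% of the spots of each section.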

Additional observations from a re-analysis of the deposited data

How the results depend on the processing

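The numbers of genes called moved with the region definition and the tool. For the interior against the edge, 961 genes were called, and 612 without the replicate block, 427 with both edge regions summed, 376 with the edge as intermediate neural score, 1802 with the border from tumor and neural markers and 2617 with DESeq2. For the interior against the tumor-side edge, the count of 0 became 348 with that border, 3 with neural tissue within 12 steps and 439 with DESeq2. For the edge against neural tissue, 5182 became 2619 with the edges summed, 2836 with neural tissue within 12 steps and 1940 with the intermediate score. The interior against neural tissue gave 7217 and stayed within 1.5 times of it in the settings run. Library size as the only scaling moved the median over all genes on the log2 scale from 0.08 to -0.15 (interior against edge) and from -0.09 to -0.44 (interior against neural tissue), and the share of lower calls from 83.9% to 94.8% and from 49.1% to 70.4%.

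Of 378 tested values of the members under these alternatives, 23 lost a call, 13 gained one and 5 turned sign. Those that turned were *C3* for the interior against the edge (-0.38, intermediate score), *C3* for the interior against neural tissue (-0.61), and *C3* (-0.90), *C4b* (-0.80) and *Serping1* (-0.47) for the edge against neural tissue, the last 4 with neural tissue within 12 steps. The cause was not tested. In raw UMIs per spot, which have no test, 5 of 36 values turned sign: *C1qa*, *C1qb* and *C1qc* for the interior against the edge (0.09, 0.11 and 0.19 on the log2 scale), and *C4b* (0.48) and *Serping1* (1.55) for the interior against neural tissue. A fit on 1 section has no residual degrees of freedom, so the values without replicate 1 and without replicate 2 are those of the other section alone. Of these 72 values 13 had the opposite sign to the fit, among them *C3* in section 2 for the interior against the edge (-1.92) and against neural tissue (-1.80). Summed edges and the intermediate score give no comparison with the tumor-side edge.

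The limit of these data is the number of sections, 2, which differ in their epithelial and fibroblast markers. The regions were rebuilt from counts and are not the study's clusters.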

Other observations

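Several other complement genes were high in the tumor of section 1 and low in that of section 2. *C1ra*, a protease of the C1 complex, measured 81.0 CPM in the interior of section 1 and 1.54 CPM in that of section 2. *Masp1*, a protease of the lectin pathway, measured 104 and 10.1 CPM, and *Colec12*, a collectin scavenger receptor, 176 and 11.5 CPM. The sections are replicates of 1 group, so this difference was not tested. These genes were chosen after their values were seen.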
